A study of Mus musculus with 6 samples.

Results

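The cyclin-dependent kinase inhibitors and the D cyclins set whether a cell leaves G1 and begins to copy its DNA, and this account follows 9 of their genes through basal cells of the mouse prostate. They are Cdkn1a and Cdkn1b of the CIP/KIP family, Cdkn2a, Cdkn2b, Cdkn2c and Cdkn2d of the INK4 family, and the cyclins Ccnd1, Ccnd2 and Ccnd3. The rule goes by gene family and uses no measured value, though the families were picked with earlier results of these data known, and these are 9 of the 25273 genes that received a value. Cdkn1c, the remaining CIP/KIP gene, is not described here. The question is how their RNA levels compare between basal cells of the proximal ducts, near the urethra, and of the distal ducts, toward the gland tips.

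D cyclins bind and activate the kinases Cdk4 and Cdk6, which phosphorylate the retinoblastoma protein and so free the E2F factors that drive genes of DNA synthesis. INK4 proteins bind Cdk4 and Cdk6 directly and keep D cyclins from joining them, whereas CIP/KIP proteins bind cyclin and kinase complexes and block Cdk2 in particular. In epithelia, basal cells include cells able to divide and replace their neighbours, and the inhibitors take part in holding such cells at rest. Several members are regulated through protein stability and location, so an RNA level is not a measure of kinase activity.

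All samples came from C57BL/6 mice aged 8 to 12 weeks, and the labels name no transgene, deletion, hormone treatment or other agent for the sorted cells. There were 3 libraries of distal basal cells and 3 of proximal basal cells, called distal 1 to 3 and proximal 1 to 3 below after the replicate numbers in the labels. Cells were dissociated, stained with antibodies and sorted, but the sources used here do not give the antibodies and gates behind the name basal, and a stromal culture is described without saying if basal cells went through one. Whether replicates are separate animals, pools or repeat preparations is not stated in the labels. The p-values therefore cover only variation among these libraries, which could be technical. Levels are FPKM, which scales fragments to transcript length and to library size, and are summed over the transcripts of a gene.

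Keratins of the basal layer and of luminal cells were both abundant. Krt14, Krt15 and Krt17 were the most abundant of 12 basal markers, which summed to 7728 to 9423 FPKM in distal and 8919 to 9178 FPKM in proximal cells. Of these markers 4 were higher in proximal cells, none was lower and 8 did not pass (limma, adjusted p under 0.05). Their median log2 fold change was 0.27, and 464 of all 10255 genes tested were called higher. Krt18 and Krt8, keratins of luminal cells, averaged 1273 and 572 FPKM over the 6 libraries. The basal keratin Krt5, less abundant than Krt14, Krt15 and Krt17, averaged 499 FPKM. A list of 14 luminal markers summed to 2813 to 3671 FPKM in distal and 3879 to 4145 FPKM in proximal cells, below the basal markers. The deposited intervals imply depths of roughly 21100000 to 27100000 fragments a library. A principal component analysis of all tested genes separated the duct regions on its main axis, with 47.2% of the variance, and set distal 1 and proximal 1 apart from the other 4 libraries on the next, with 25.4%. Results are therefore also given with both libraries numbered 1 left out. That choice came from these same data, so the p-values of the fit to the other 4 libraries do not account for it. This fit called 8.59% of all genes tested higher and 12.9% lower in proximal cells. RNA of a set of dissociation and stress genes (immediate early and heat shock genes) summed to 9838, 18180 and 19040 FPKM in the distal libraries and to 7119, 8106 and 9177 FPKM in the proximal libraries. Fewer cells of a type and less RNA per cell cannot be told apart in sorted bulk samples such as these.

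Promoter sequences were available from RefSeq (GRCm38.p6) for 11 start sites of 7 members, as the 250 bases before each start. Those of Cdkn2d, Cdkn1a and Ccnd3 are printed here: Cdkn2d because it was the member that passed the test, Cdkn1a and Ccnd3 because each has an upstream and a downstream start and the deposited values fall on the downstream one alone. Capitals mark GC boxes (GGGCGG on either strand, written GGGCGG or CCGCCC) and, in the upstream Cdkn1a window, a p53 element. Each sequence reads 5′ to 3′ on the strand of the gene and ends at the base before the start. They lie at chr9:21291210-21291459 on the minus strand, chr17:29090729-29090978 and chr17:29093519-29093768 on the plus strand, and chr17:47504801-47505050 and chr17:47593217-47593466 on the plus strand, in the order shown.
Cdkn2d: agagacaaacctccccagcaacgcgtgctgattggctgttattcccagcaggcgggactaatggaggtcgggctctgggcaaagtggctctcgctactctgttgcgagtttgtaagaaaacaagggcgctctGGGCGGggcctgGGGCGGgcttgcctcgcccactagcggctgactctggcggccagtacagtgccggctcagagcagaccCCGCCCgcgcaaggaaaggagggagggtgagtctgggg
Cdkn1a upstream start: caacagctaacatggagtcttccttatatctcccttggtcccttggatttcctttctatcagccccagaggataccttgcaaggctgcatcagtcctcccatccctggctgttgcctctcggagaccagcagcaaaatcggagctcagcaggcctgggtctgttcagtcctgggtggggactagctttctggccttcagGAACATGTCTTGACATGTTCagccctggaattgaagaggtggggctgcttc
Cdkn1a downstream start: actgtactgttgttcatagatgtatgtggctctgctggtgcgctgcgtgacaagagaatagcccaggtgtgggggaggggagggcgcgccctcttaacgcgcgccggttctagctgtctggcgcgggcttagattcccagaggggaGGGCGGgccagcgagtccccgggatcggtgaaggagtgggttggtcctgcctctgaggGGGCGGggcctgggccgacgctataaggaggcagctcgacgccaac
Ccnd3 upstream start: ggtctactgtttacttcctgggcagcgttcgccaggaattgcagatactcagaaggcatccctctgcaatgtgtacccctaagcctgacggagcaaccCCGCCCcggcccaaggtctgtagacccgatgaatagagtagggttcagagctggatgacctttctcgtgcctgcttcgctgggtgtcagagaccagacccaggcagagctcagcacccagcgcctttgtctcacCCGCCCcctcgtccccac
Ccnd3 downstream start: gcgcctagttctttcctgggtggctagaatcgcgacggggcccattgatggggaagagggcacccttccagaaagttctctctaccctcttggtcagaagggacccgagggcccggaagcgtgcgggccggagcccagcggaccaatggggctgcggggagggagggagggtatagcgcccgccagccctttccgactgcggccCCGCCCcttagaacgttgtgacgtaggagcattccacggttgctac
The Cdkn2d window held 3 GC boxes, which began 118, 106 and 38 bases before the start, and a CCAAT box 220 bases before it. A GC box is bound by Sp1-type factors, and 7 of the 11 member windows held at least 1, against 32.7% of 32851 mouse promoter windows of the same length searched in the same way. The member windows held 42.8 to 78.4% G and C, against 53.2% over all windows, and the comparison was not matched for this. CCAAT was found in 33.8% of all windows. The p53 element, searched as 2 adjacent half-sites with at most 1 mismatch on both strands, began 51 bases before the upstream Cdkn1a start, was in no other member window, and was found in 15 of all windows (0.0457%). The E2F motif TTTNNCGC was in both Cdkn2a windows and in 4.28% of all windows. The cAMP response element TGACGTCA was in the Cdkn2b window and in 1.55% of all windows. In none of the 11 windows was there a CACGTG E-box, an AP-1 site (TGANTCA) or a TATAAA box, found in 6.02%, 6.75% and 12.4% of all windows respectively. No GC box overlapped a CCAAT box in the printed windows. These are matches of letters and not measured sites of binding.

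Of the 9 members, 6 reached a mean of 1 FPKM and were tested, and 1 of these, Cdkn2d, passed. It was lower in proximal cells. Over all 10255 genes tested, 7.02% were called in either direction and 2.50% were called lower in proximal cells (limma, Benjamini-Hochberg adjusted p under 0.05). No member was called higher, against 464 of the 10255 genes tested. At an unadjusted p under 0.05, 1 member was higher (Ccnd2) and 2 were lower (Cdkn1a and Cdkn2d), where 12.1% of all genes tested were higher and 11.9% were lower. These figures over all genes tested are also the background for the counts of the gene lists below. The groups did not overlap in 2 of the 6 tested members, Cdkn2d and Ccnd2, against 28.8% of all genes tested. With 3 libraries a group, an exact two-sided permutation test of a single gene cannot go below 0.1.

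**Figure D1:**
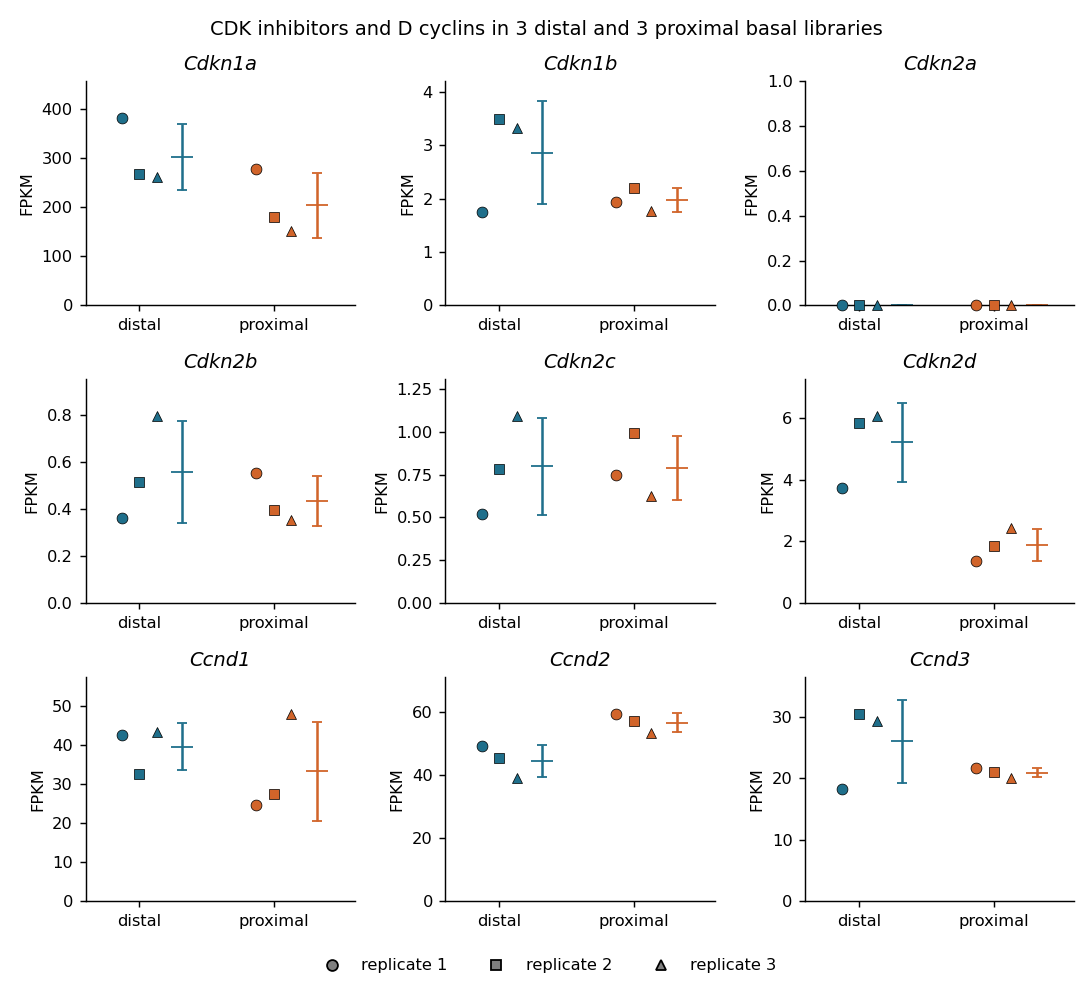
FPKM of each of the 9 genes in every library, with 1 panel a gene and its own axis starting at 0. Points are libraries, marked by replicate number, and bars are group means; the proximal values of Cdkn2d lie at 1.38 to 2.44 FPKM, below the distal 3.73 to 6.04 FPKM, and Cdkn2a lies at 0 throughout.

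Cdkn1a encodes p21, the inhibitor best known as a target of p53, and it was the most abundant member in every library. Its level was 379.9, 266 and 260 FPKM in distal 1 to 3 and 277, 181 and 152 FPKM in proximal 1 to 3. Proximal 1 lay above distal 2 and distal 3, so the groups overlapped, and within each group the library numbered 1 was the highest. The means were 302 ± 67.4 FPKM over the distal and 203 ± 65.5 FPKM over the proximal libraries (SD, n = 3). The difference did not pass the test, with a log2 fold change of -0.59 with an SE of 0.24 (limma, adjusted p = 0.178). Fold changes here are proximal over distal on the log2(FPKM + 1) scale, which understates those of low genes. Without both libraries numbered 1 the log2 fold change was -0.66 and passed (limma, adjusted p = 0.0131), as it did with only proximal 1 left out, at -0.84 (limma, adjusted p = 0.0384). With the replicate number as a block it passed at -0.59 (limma, adjusted p = 0.0093).

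The gene occupies chr17:29090976-29100727 on the plus strand (mm10). Of its 3 transcript models, the one of 1910 bases that begins at the downstream start carried the whole level. The model of 1936 bases from the upstream start, whose promoter window holds the p53 element, was listed at 0 in every library, with a deposited upper bound of at most 0.050 FPKM. That element also lies before the downstream start, farther away than its 250-base window reaches. The windows therefore cannot assign the element to either start, and which start it acts on was not tested. These models share most of their exons, and Cufflinks divides fragments among them by estimate.

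Cdkn1b encodes p27, the inhibitor associated with resting cells and withdrawal from the cycle, and it lies at chr6:134920401-134925513 on the plus strand. Its level was 1.75, 3.50 and 3.33 FPKM in the distal libraries and 1.93, 2.21 and 1.77 FPKM in the proximal libraries. Distal 1 was the lowest library of all, while distal 2 and distal 3 stood above every proximal library. The means of 2.86 ± 0.962 and 1.97 ± 0.223 FPKM (SD, n = 3) gave a log2 fold change of -0.35 with an SE of 0.21 (limma, adjusted p = 0.345). It passed at -0.57 when both libraries numbered 1 were left out (limma, adjusted p = 0.0373) and when distal 1 alone was left out (limma, adjusted p = 0.0413). Cdkn1a made up 98.7 to 99.5% of the summed FPKM of the pair in every library.

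The INK4 genes were all listed at low levels, and Cdkn2d was the only one of them that could be tested. Cdkn2d encodes p19Ink4d and lies at chr9:21288410-21291407 on the minus strand. Its level was 3.73, 5.82 and 6.04 FPKM in distal 1 to 3 and 1.38, 1.84 and 2.44 FPKM in proximal 1 to 3. Every distal library was above every proximal library, with distal 1 nearest to the proximal values. The means were 5.20 ± 1.27 FPKM over the distal and 1.89 ± 0.531 FPKM over the proximal libraries (SD, n = 3), 2.76-fold apart in FPKM. Cdkn2d fell by 1.10 ± 0.21 on the log2(FPKM + 1) scale in proximal cells (SE, limma, adjusted p = 0.0195), lower in 3 of 3 proximal libraries than in any distal library. Its level fell on 1 transcript model, which had the same log2 fold change of -1.10 but did not pass among the transcripts (limma, adjusted p = 0.0607), of which 3.06% were called in either direction. Without both libraries numbered 1 the gene fell by 1.15 (limma, adjusted p = 0.00684). The call was lost, with the direction kept, without distal 2 (limma, adjusted p = 0.0971), without distal 3 (limma, adjusted p = 0.0821), without proximal 2 (limma, adjusted p = 0.0898) and with no filter on low genes (limma, adjusted p = 0.0615).

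The dissociation and stress genes deviated in the same direction as Cdkn2d in 5 of the 6 libraries, all but distal 1. The deviation of Cdkn2d from its own mean, in log2(FPKM + 1), was 0.18, 0.71 and 0.75 in distal 1 to 3 and -0.81, -0.55 and -0.28 in proximal 1 to 3. The mean deviation of the 16 tested genes of that list was -0.24, 0.75 and 0.79 in the distal libraries and -0.60, -0.40 and -0.31 in the proximal libraries. Both were highest in distal 3 and distal 2 and lowest in proximal 1, and they parted most in distal 1. Of the 16 genes, 3 were lower in proximal cells (Junb, Egr2 and Ier2) and 13 did not pass (limma), where 2.50% of all genes tested were lower. All 16 had a negative log2 fold change, with a median of -0.92. At an unadjusted p under 0.05, 12 were lower, where 11.9% of all genes tested were lower. Without both libraries numbered 1, 15 were lower, in a fit that called 12.9% of all genes tested lower. Cdkn1b and Ccnd3 deviated in the same direction as that list in all 6 libraries. Cdkn1b was at -0.28, 0.43 and 0.37 in distal 1 to 3 and at -0.19, -0.06 and -0.27 in proximal 1 to 3. Ccnd3 was at -0.32, 0.38 and 0.34 and at -0.09, -0.12 and -0.19. Cdkn1a, Ccnd1 and Ccnd2 did not share its direction throughout. The part of the dissociation and stress genes in the results on Cdkn2d, Cdkn1b and Ccnd3 was not tested.

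**Figure D2:**
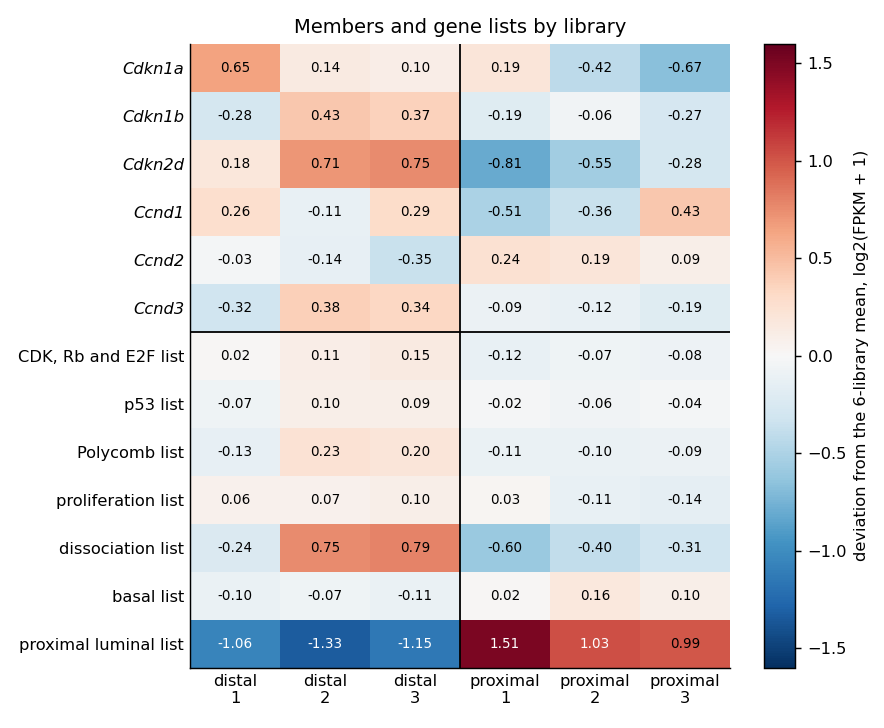
Deviation from the mean over all 6 libraries, in log2(FPKM + 1), for the 6 tested members and as a mean over the tested genes of 7 lists. Each column is a library and colour gives the deviation; Cdkn2d lies between 0.18 and 0.75 in the distal libraries and between -0.81 and -0.28 in the proximal ones, and the dissociation list lies at -0.24 in distal 1 and at 0.75 and 0.79 in distal 2 and 3.

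Cdkn2a carries 2 unrelated proteins, p16Ink4a and p19Arf, read from separate first exons at chr4:89274471-89294653 on the minus strand. Both transcript models, of 850 and 929 bases, were listed at 0 in all 6 libraries. The deposited interval is also 0 to 0 for each of them, unlike the other members' models at 0, so a failed estimate cannot be told apart from absence. Its neighbour Cdkn2b, which encodes p15Ink4b, a target of TGF-beta signalling, lies at chr4:89306299-89311039. Its level was 0.364, 0.513 and 0.793 FPKM in the distal libraries and 0.552, 0.395 and 0.354 FPKM in the proximal libraries. These groups overlapped, and the means of 0.557 ± 0.218 and 0.434 ± 0.105 FPKM (SD, n = 3) were below the filter, so the gene was not tested.

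Cdkn2c, which encodes p18Ink4c, lies at chr4:109660876-109667189 on the minus strand. Its level was 0.520, 0.783 and 1.09 FPKM in the distal libraries and 0.748, 0.990 and 0.628 FPKM in the proximal libraries. The means of 0.797 ± 0.285 and 0.788 ± 0.185 FPKM (SD, n = 3) were close and the groups overlapped throughout, and this gene too was below the filter. Summed over the family, with Cdkn2a taken at its listed 0 although that can be a failed estimate, INK4 RNA was 4.62, 7.12 and 7.92 FPKM in the distal libraries. It was 2.68, 3.23 and 3.42 FPKM in the proximal libraries. Cdkn2d supplied 76.2 to 81.8% of that sum in distal and 51.4 to 71.3% in proximal cells.

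Among the D cyclins, which bind Cdk4 and Cdk6 and are induced by growth signals, no gene passed the test, and their summed level was close in the 2 regions. Ccnd2, cyclin D2, lies at chr6:127125162-127152193 on the minus strand. Its level was 49.0, 45.4 and 38.9 FPKM in distal 1 to 3 and 59.1, 57.1 and 53.3 FPKM in proximal 1 to 3. Every proximal library was above every distal library. The means of 44.4 ± 5.12 and 56.5 ± 2.96 FPKM (SD, n = 3) gave a log2 fold change of 0.34 with an SE of 0.11 (limma, adjusted p = 0.113). Leaving out both libraries numbered 1 gave 0.38 (limma, adjusted p = 0.0503). With the replicate number as a block Ccnd2 passed at 0.34 (limma, adjusted p = 0.0283).

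The level of Ccnd2 was divided between a full model of 5771 bases and a short model of 1047 bases at the 5′ end of the gene. The full model had means of 20.9 ± 2.15 FPKM over the distal and 27.02 ± 2.04 FPKM over the proximal libraries (SD, n = 3). The short model had 23.5 ± 3.34 and 29.5 ± 1.15 FPKM (SD, n = 3), and it supplied 50.5 to 55.5% of the gene's FPKM in every library. The log2 fold changes of the full and the short model were 0.35 and 0.32, and neither passed among the transcripts (limma, adjusted p = 0.174 and 0.245). Which proteins are made from the short model was not measured.

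Ccnd1, cyclin D1, lies at chr7:144929931-144939925 on the minus strand. Its level was 42.6, 32.5 and 43.4 FPKM in the distal libraries and 24.6, 27.3 and 47.8 FPKM in the proximal libraries. Proximal 3 was the highest library of all and the other proximal libraries were the lowest. The means of 39.5 ± 6.03 and 33.2 ± 12.7 FPKM (SD, n = 3) gave a log2 fold change of -0.29 with an SE of 0.24 (limma, adjusted p = 0.504). Without proximal 3 it was -0.58 (limma, adjusted p = 0.114), and without both libraries numbered 1 it was -0.05 (limma, adjusted p = 0.911).

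Ccnd3, cyclin D3, lies at chr17:47505051-47599691 on the plus strand. Its level was 18.2, 30.4 and 29.3 FPKM in the distal libraries and 21.6, 21.1 and 20.1 FPKM in the proximal libraries. Distal 1 was the lowest library, and the 3 proximal libraries lay close together between it and the other distal ones. The means of 26.0 ± 6.71 and 20.9 ± 0.772 FPKM (SD, n = 3) gave a log2 fold change of -0.27 with an SE of 0.19 (limma, adjusted p = 0.423). It passed at -0.49 without distal 1 (limma, adjusted p = 0.0263) and at -0.52 without both libraries numbered 1 (limma, adjusted p = 0.0137). All of its level fell on the model of 1979 bases from the downstream start printed above, and the 3 models from the upstream start were listed at 0, with upper bounds of at most 0.0464 FPKM. The 3′ end of Ccnd3 overlaps Bysl on the opposite strand by 361 bases, and whether counting used strand is not stated, so reads there cannot be told apart.

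**Figure D3:**
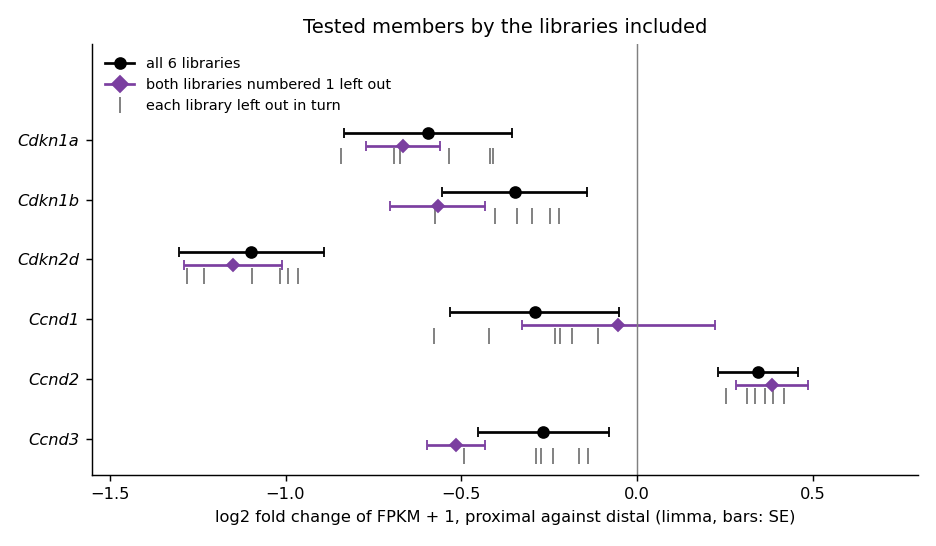
Log2 fold change, proximal over distal, on the log2(FPKM + 1) scale for the 6 tested members. Points with bars are estimates ± SE from all 6 libraries and from the 4 libraries left without those numbered 1, and ticks are estimates with 1 library left out; Cdkn2d lies between -1.28 and -0.97 and Ccnd2 between 0.25 and 0.42 over the latter.

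Without both libraries numbered 1, 4 of the 6 tested members passed, all lower in proximal cells. They were Cdkn2d, which also passed with all 6 libraries, and Cdkn1a, Cdkn1b and Ccnd3, which did not. The fit without the libraries numbered 1 called 12.9% of all genes tested lower in proximal cells. The other members tested, Ccnd1 and Ccnd2, did not pass in it.

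The 3 D cyclins summed to 109.8, 108.3 and 111.6 FPKM in the distal libraries and 105.3, 105.5 and 121.1 FPKM in the proximal libraries. This sum counts the full and the short Ccnd2 model, and the short one supplied 50.5 to 55.5% of the level of Ccnd2. The ranges of the sum overlapped, and so did the ranges of each gene's share of it. Ccnd2 supplied 44.6, 41.9 and 34.9% of it in distal 1 to 3 and 56.1, 54.1 and 44.0% in proximal 1 to 3; distal 1 lay above proximal 3, and the other libraries of the regions did not cross. Ccnd1 supplied 30.0 to 38.9% in distal and 23.3 to 39.5% in proximal cells. For Ccnd3 the shares were 16.6 to 28.03% and 16.6 to 20.5%. The FPKM of Cdkn1a per FPKM of D cyclins was 3.46, 2.46 and 2.33 in the distal libraries and 2.63, 1.71 and 1.25 in the proximal libraries.

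**Figure D4:**
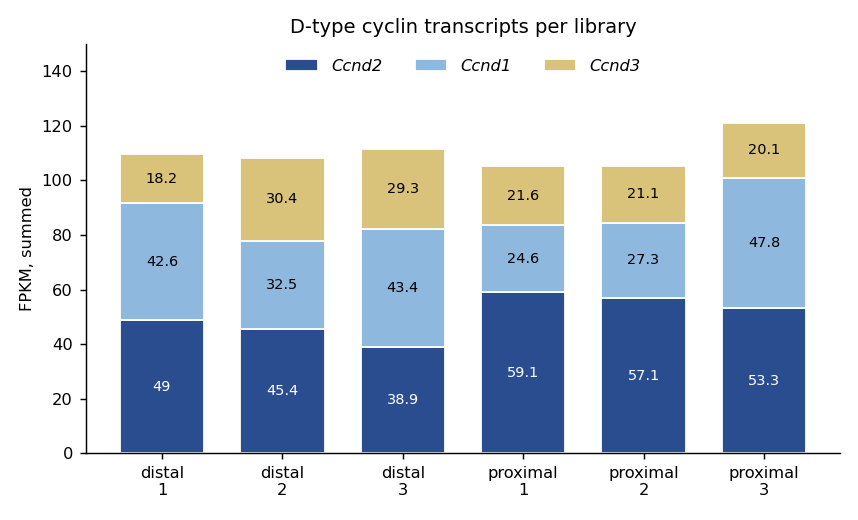
FPKM of Ccnd1, Ccnd2 and Ccnd3 stacked for each library, on an axis starting at 0, with the full and the short Ccnd2 model summed. The stacks reach 108.3 to 111.6 FPKM in the distal libraries and 105.3 to 121.1 FPKM in the proximal libraries, and the Ccnd2 portion is 38.9 to 49.0 FPKM in the former and 53.3 to 59.1 FPKM in the latter.

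Ordered by mean FPKM, which is a level per length and so allows genes to be compared, distal cells had Cdkn1a, Ccnd2, Ccnd1, Ccnd3, Cdkn2d, Cdkn1b, Cdkn2c, Cdkn2b and Cdkn2a from high to low. In that order the ranges of Ccnd2 and Ccnd1 overlapped, as did those of Cdkn2c and Cdkn2b. Proximal cells had nearly the same order, with Cdkn1b just above Cdkn2d and overlapping ranges for that pair. Distal libraries had Cdkn2d above Cdkn1b in all 3 cases. The place of Ccnd2 in both orders counts its full and short models together. Taken alone, the full model had a distal mean of 20.95 FPKM, below the means of Ccnd1 (39.5) and Ccnd3 (26.0). Its proximal mean of 27.02 FPKM was below that of Ccnd1 (33.2) and above that of Ccnd3 (20.9). The full model's range overlapped that of Ccnd3 among distal libraries and that of Ccnd1 among proximal ones.

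The kinases and pocket proteins that the members act on did not pass the test. A list of 22 genes of the Cdk, Rb and E2F pathway had 16 tested members, of which none passed (limma), with 1 higher and 4 lower at an unadjusted p under 0.05. Their median log2 fold change was -0.09, against -0.01 over all genes tested. Cdk4, the main partner of D cyclins, was at 70.5 ± 5.61 FPKM over the distal and 65.8 ± 6.82 FPKM over the proximal libraries (SD, n = 3). Its relative Cdk6 was at 6.35 ± 0.910 and 9.43 ± 1.47 FPKM (SD, n = 3), with no overlap between the groups and a log2 fold change of 0.50 with an SE of 0.15 (limma, adjusted p = 0.0931). Cdk2, which CIP/KIP proteins block, was at 8.10 ± 0.868 and 5.65 ± 0.449 FPKM (SD, n = 3), again with no overlap, and had a log2 fold change of -0.45 (limma, adjusted p = 0.0719). The groups did not overlap in 28.8% of all genes tested. Without both libraries numbered 1, Cdk6 and Cdk2 passed (limma, adjusted p = 0.0262 and 0.0266). In that fit 1 gene of the list was higher and 4 were lower, where 8.59% of all genes tested were higher and 12.9% were lower. Rb1, the retinoblastoma gene, was at 6.26 ± 0.644 and 6.06 ± 0.244 FPKM (SD, n = 3).

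Cdkn1a is 1 of many p53 targets, and the others depended on which libraries were used. In a list of 30 regulators and other targets of p53, 26 were tested, 1 was higher, 1 was lower and 24 did not pass (limma), with a median log2 fold change of -0.02. At an unadjusted p under 0.05 there were 5 higher and 8 lower. Without both libraries numbered 1, 2 passed as higher and 8 as lower, in a fit that called 8.59% and 12.9% of all genes tested. Plk3, a stress-responsive kinase, was at 22.1, 29.3 and 29.3 FPKM in the distal libraries and 13.1, 12.9 and 12.2 FPKM in the proximal libraries, and fell by 1.01 ± 0.13 on the log2 scale (SE, limma, adjusted p = 0.00491). Trp53inp1, which aids p53 signalling, rose from 12.0 ± 2.34 to 20.1 ± 1.03 FPKM (SD, n = 3), by 0.72 ± 0.15 on the log2 scale (SE, limma, adjusted p = 0.0286). The latter call was lost without any 1 of distal 2, distal 3, proximal 2 and proximal 3, with adjusted p up to 0.128, and with no filter (limma, adjusted p = 0.0614).

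Transcription factors that act on the D cyclin or CDK inhibitor genes made a list of 24, of which 22 were tested. Of these 2 were higher in proximal cells, none was lower and 20 did not pass (limma), where 464 of all 10255 genes tested were higher and 256 were lower. At an unadjusted p under 0.05 there were 6 higher and 6 lower, where 12.1% of all genes tested were higher and 11.9% were lower. The median log2 fold change was -0.20. Ets1, an ETS family activator, rose from 69.0 ± 5.89 to 106.3 ± 2.34 FPKM (SD, n = 3), by 0.62 ± 0.10 on the log2 scale (SE, limma, adjusted p = 0.0112). Runx1, a Runt family factor, rose from 23.7 ± 4.37 to 37.8 ± 0.725 FPKM (SD, n = 3), by 0.67 ± 0.13 (SE, limma, adjusted p = 0.0260). Both calls were lost without distal 2, distal 3 or proximal 2, with adjusted p up to 0.0666 for Ets1 and 0.120 for Runx1, and that of Runx1 also without proximal 3 and with no filter (limma, adjusted p = 0.0531).

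In a list of 19 genes that act on the stability or location of the p21, p27 and D cyclin proteins, among them ubiquitin ligase subunits, 15 were tested and none passed (limma), with 1 higher and 1 lower at an unadjusted p under 0.05 and a median log2 fold change of -0.02. Proliferation genes were mostly low: 12 of 24 were tested, none was higher, Rrm2 was lower and 11 did not pass (limma), with 2 lower and none higher at an unadjusted p under 0.05. Plk1 and Cdc20, genes of mitosis, were listed at 0 in every library, which can be a failed estimate and not a low level. Rrm2, a subunit of the enzyme that makes deoxynucleotides, was at 58.1, 75.2 and 73.9 FPKM in the distal libraries and 32.2, 42.2 and 37.6 FPKM in the proximal libraries. Rrm2 fell by 0.87 ± 0.14 on the log2 scale (SE, limma, adjusted p = 0.0119), a call lost without distal 2 or distal 3, with adjusted p up to 0.0647.

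A list of 17 genes often reported in senescent cells, a state linked to Cdkn1a and Cdkn2a, had 15 tested members. Of these 3 were higher in proximal cells, none was lower and 12 did not pass (limma), where 464 of all 10255 genes tested were higher and 256 were lower. At an unadjusted p under 0.05 there were 7 higher and none lower, where 12.1% of all genes tested were higher and 11.9% were lower. The median log2 fold change was 0.33. The 3 genes called higher encode binding proteins for insulin-like growth factors, which modulate those growth signals outside the cell. Igfbp5 rose from 24.1 ± 0.614 to 75.7 ± 6.16 FPKM (SD, n = 3), by 1.61 ± 0.10 on the log2 scale (SE, limma, adjusted p = 0.000147). Igfbp7 rose by 1.72 ± 0.15 (SE, limma, adjusted p = 0.000748) and Igfbp3 by 1.90 ± 0.25 (SE, limma, adjusted p = 0.00491).

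Markers of other cells also differed between the groups, in a fit that called 464 of all 10255 genes tested higher and 256 lower in proximal cells. The 14 luminal markers summed to 2813 to 3671 FPKM in distal and 3879 to 4145 FPKM in proximal cells, with 3 higher, 2 lower and 9 not passing. The 10 secretory products summed to 1523 to 2028 FPKM and 839.2 to 1181 FPKM, with 1 higher, 2 lower and 6 not passing. Defb50, a defensin, was the most abundant of these products. The 10 markers of proximal luminal progenitors summed to 964.2 to 1033 FPKM in distal and 1852 to 2142 FPKM in proximal cells, with 8 higher and 2 not passing. The 10 endothelial markers summed to 3.26 to 16.3 FPKM in distal and 24.5 to 33.8 FPKM in proximal cells, with 5 of 8 tested higher. The 10 fibroblast markers summed to 776.7 to 819.4 FPKM and 713 to 781.1 FPKM, most of it Dcn, with 6 of 8 tested higher. Of the smooth muscle and pericyte markers, which summed to 73.3 to 79.2 FPKM and 68.2 to 113.4 FPKM, 3 of 9 tested were higher. Nerve and glia markers summed to 36.9 to 44.3 FPKM and 44.4 to 62.2 FPKM, with 2 of 4 tested higher. Immune markers summed to 7.14 to 14.1 FPKM over all libraries, and neuroendocrine markers to at most 2.13 FPKM. The part of such cells in the results on the inhibitors and cyclins was not tested.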

How the data were processed

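RNA sequencing libraries of 3 distal and 3 proximal samples of sorted prostate basal cells were analysed, with groups and replicate numbers from the labels. Total RNA was converted to cDNA with random and oligo(dT) primers, per the labels' protocols. The submitters' processing notes name bcl2fastq 1.8.3, TopHat, Cufflinks and the build mm10. The files the authors deposited give FPKM with an interval for 63241 transcripts, per the file headers, and no gene names. They also hold the coverage of each transcript, per the file headers, which was not used in any test. The annotation and the use of strand are not given in the sources used here.

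Transcripts were matched to GENCODE M21 (GRCm38, the assembly of mm10) by span and spliced length. A close match needed a score of at least 0.5 with any other gene below 0.8 of it (49609 transcripts), and 3714 more were matched by their exons. In all 53323 transcripts were matched, with 93.9% of the summed FPKM, to 25273 genes, whose level is the sum. The test was limma 3.58.1 in R 4.3.3 (lmFit, eBayes with trend) on log2(FPKM + 1) of genes averaging 1 FPKM or more, two-sided, with all 6 libraries and no covariates, and Benjamini-Hochberg adjusted p under 0.05 was called; 13878 transcripts were tested in the same way. FPKM are not counts, so no count test was run. The depth was approximated from the width of the deposited intervals. The procedure was tested on simulated data. An exact 0 in these files can be a failed estimate.

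The members and gene lists were chosen with earlier results of these data known. Named genes are the members, all called genes of each cell cycle list (at most 4), the kinases Cdk4, Cdk6 and Cdk2, Rb1, and at most the 3 most abundant of a marker list, with those named for being at 0 or for a count of 5 or fewer added after their values were seen. Some genes that meet this rule are not reported here. Promoter windows and motifs are from RefSeq (GRCm38.p6), matched by symbol for 7 of 9 members, leaving out the 50 bases after the start. Ccnd1 and Ccnd2 had no entry. Alternatives were another filter, pseudocount, scaling or matching, a replicate block, and libraries left out.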

Additional observations from a re-analysis of the deposited data

How the results depend on the processing

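With 1 library left out at a time, the genes called ranged from 192 to 550 higher and 45 to 614 lower in proximal cells, the members called lower from 0 to 3, and the transcripts called from 103 to 283 higher and 26 to 263 lower. Leaving out both libraries numbered 1 called 881 genes higher and 1328 lower, 4 members lower and 395 transcripts lower. With no filter on low genes, 137 genes, 0 members and 79 transcripts were lower. A filter at 5 FPKM called 273 genes higher and 168 lower, and 0 members lower, since Cdkn2d was not tested there. The replicate block called 880 genes higher and 732 lower, and 1 member higher (Ccnd2, limma, adjusted p = 0.0283) and 2 lower (Cdkn1a and Cdkn2d, adjusted p = 0.0093 and 0.0054). The replicate numbers were not taken as pairs, and the labels do not say whether libraries of the same number were prepared together. Deviations from the group means correlated at 0.38, 0.045 and 0.29 for like numbers 1 to 3, and at -0.37 to 0.16 for unlike numbers. Distal 1 and distal 3 correlated best with the proximal library of their own number, and distal 2 with proximal 3 (0.13). The fold change of Cdk4 changed sign to 0.019 without both libraries numbered 1, and that of Rb1 ranged from -0.098 to 0.030 with 1 library left out, turning sign without distal 3; neither was called. The cause of these changes was not tested. Cdkn2d was called with adjusted p from 0.0130 to 0.0208 under a pseudocount of 0.1, median-ratio or quantile scaling, no variance trend, closely matched transcripts, and transcripts with an OK status. Of the single-gene results under all settings, 261 kept direction and side of the threshold, 14 came to pass, 25 no longer passed and 2 changed sign, and of those of single transcripts 89 kept both and 7 came to pass. Depth was not tested as a limit for members below 1 FPKM.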

Other observations

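The genes whose profile over the 6 libraries lay nearest to that of Cdkn2d were Trim32, a ubiquitin ligase, Tgm1, a transglutaminase of the cornified envelope, and Angptl4, a secreted inhibitor of lipoprotein lipase. Likeness was the root mean square distance between log2(FPKM + 1) profiles centred on their means, among 6681 genes averaging 5 FPKM or more, and was 0.0833, 0.0848 and 0.0908 against a median of 0.631. The 3 genes were chosen by this distance, and their likeness is a description of these 6 libraries.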
